A study of Arabidopsis thaliana with 6 samples.

Results

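A set of 10 genes that laboratories commonly use to normalise transcript measurements in Arabidopsis thaliana was followed across the 6 libraries of this series. They are the actins ACT2 (AT3G18780), ACT7 (AT5G09810) and ACT8 (AT1G49240), the ubiquitin genes UBQ10 (AT4G05320) and UBQ5 (AT3G62250), and the glyceraldehyde-3-phosphate dehydrogenases GAPC1 (AT3G04120) and GAPC2 (AT1G13440). The others are the translation elongation factor gene EF1A4 (AT5G60390), the phosphatase subunit gene PP2AA3 (AT1G13320) and the TIP41-like gene AT4G34270. The genes were chosen by name, as 10 of the 32833 gene entries in the count tables, and the rule uses no measured value. Earlier results of these data were known when the choice was made. The 3 libraries of amiRNA-VQ1,10 seedlings, which express an artificial microRNA whose label names VQ1 and VQ10, were set against 3 libraries of wild type Col-0 seedlings. Whole seedlings of both genotypes were grown for 14 days in 16 h light and 8 h dark at 21% O2, with 1% sucrose, and were taken 4 h after lights on. The labels do not give the promoter that drives the artificial microRNA or the number of independent lines, so the results hold for the plants sampled. The measurement was 3′ RNA-seq, which reads mainly the ends of transcripts, so that a longer transcript does not yield more counts.

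A reference gene is a gene whose transcript level is taken to be steady, so that other transcripts can be expressed relative to it. Actins build the filaments of the cytoskeleton, and in plants the family is divided into vegetative members, to which ACT2, ACT7 and ACT8 belong, and reproductive members used mainly in pollen and ovules. Ubiquitin is a small protein that marks other proteins for degradation, and it is made either as a chain of repeats (UBQ10) or fused to a ribosomal protein (UBQ5). GAPC1 and GAPC2 are cytosolic enzymes of glycolysis, EF1A brings aminoacyl-tRNA to the ribosome, PP2AA3 is a scaffold subunit of protein phosphatase 2A, and TIP41 is known from yeast as a regulator in TOR signalling.

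Several of these genes have close relatives, so the coding sequences are shown first, to let a reader see how far the transcripts can be told apart. The sequences are those of RefSeq on TAIR10.1, 5′ to 3′ on the coding strand, and each gene was matched by its identifier. The last 120 coding bases of the 3 actin genes follow, with bases that differ from ACT2 in capitals.
ACT2: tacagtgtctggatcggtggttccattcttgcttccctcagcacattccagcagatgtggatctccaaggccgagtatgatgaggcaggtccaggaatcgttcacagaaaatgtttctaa
ACT8: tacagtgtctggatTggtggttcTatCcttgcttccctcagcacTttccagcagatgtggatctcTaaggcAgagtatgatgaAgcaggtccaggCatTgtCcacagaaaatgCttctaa
ACT7: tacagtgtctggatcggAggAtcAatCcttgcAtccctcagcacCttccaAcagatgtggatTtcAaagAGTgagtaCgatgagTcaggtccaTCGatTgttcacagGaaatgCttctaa
In this stretch ACT8 differed from ACT2 at 11 bases and ACT7 at 20. Over the 1134 coding bases ACT2 and ACT8 were 91.0% identical, ACT2 and ACT7 82.5%, and ACT7 and ACT8 83.5%. The same stretch of the GAPC pair follows, with bases of GAPC1 that differ from GAPC2 in capitals.
GAPC2: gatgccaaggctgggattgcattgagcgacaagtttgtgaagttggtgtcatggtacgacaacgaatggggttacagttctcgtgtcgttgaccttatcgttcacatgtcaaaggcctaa
GAPC1: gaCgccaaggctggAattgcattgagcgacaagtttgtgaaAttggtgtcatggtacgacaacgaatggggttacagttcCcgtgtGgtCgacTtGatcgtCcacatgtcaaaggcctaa
The pair differed at 9 of these 120 bases and was 89.9% identical over 1017 coding bases.

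The ubiquitin genes share a coding unit. The coding sequence of UBQ10 held 6 units of 228 bases that encode the same 76 residues, and the units were 78.9% to 93.0% identical to each other in bases. UBQ5 held 1 such unit, with the same protein, followed by 246 coding bases of its ribosomal part. The last unit of UBQ10 and the unit of UBQ5 follow, with bases of UBQ5 that differ from UBQ10 in capitals.
UBQ10: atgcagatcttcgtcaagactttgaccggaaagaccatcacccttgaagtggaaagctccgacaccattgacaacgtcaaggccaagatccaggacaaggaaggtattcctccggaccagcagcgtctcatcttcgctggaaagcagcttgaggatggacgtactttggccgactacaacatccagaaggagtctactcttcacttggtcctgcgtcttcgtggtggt
UBQ5: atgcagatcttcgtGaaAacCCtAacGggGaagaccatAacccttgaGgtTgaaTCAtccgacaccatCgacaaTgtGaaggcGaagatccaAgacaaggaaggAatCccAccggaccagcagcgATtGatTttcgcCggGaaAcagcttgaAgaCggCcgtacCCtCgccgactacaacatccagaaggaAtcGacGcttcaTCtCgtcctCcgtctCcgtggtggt
The 2 units differed at 42 bases, all of which leave the protein as it is, and were 81.6% identical. Stretches of 50 bases that also occur in another transcript or elsewhere in the genome, on either strand, made up 7.53% of the UBQ10 transcript and 6.01% of the EF1A4 transcript. In the other 8 genes the share was 0.742% or less. In the last 300 bases of the transcripts, the part that a 3′ method reads most, none of the 251 stretches of 50 bases in any of the 10 genes had such a second match. EF1A4 overlaps AT5G60400 on the opposite strand, and the strand setting of the counting is not given in the sources used here, so reads of these 2 genes may have been mixed. No annotated gene overlaps any of the other 9.

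The totals over genes ran from 926209 to 1177363 counts in the amiRNA-VQ1,10 libraries and from 1124134 to 1329817 counts in the Col-0 libraries. The 10 genes together took 0.697% to 0.708% of the counts of an amiRNA-VQ1,10 library and 0.677% to 0.699% of those of a Col-0 library. All 10 passed the filter on low counts, with 12701 genes passing in all. Levels below are in CPM, counts brought to a common library size, with sizes scaled by the trimmed mean of M-values (TMM), a method that assumes most genes do not change. In whole seedlings fewer cells of a type and less RNA per cell cannot be told apart. Markers of green leaf tissue summed to 14908 to 15578 CPM in amiRNA-VQ1,10 and 14018 to 14313 CPM in Col-0, with counts for 5 of 5 markers. Root markers summed to 178 to 217.6 CPM in amiRNA-VQ1,10 and 218.4 to 263 CPM in Col-0, also with counts for 5 of 5. Both sums had separate ranges in the 2 genotypes, as had 10.4% of all tested genes taken singly. Of the markers tested, 5 of green leaf and 3 of root, none passed the test described below. Their part in the levels of the reference genes was not tested. The 3 pollen markers, VGD1, VGDH2 and PPME1, had 0 counts, which allows up to 0.439 CPM each over the 6 libraries, and the 4 seed storage markers had 6 counts in all.

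The 10 genes spanned a 111-fold range of mean level, with GAPC2 at the top and TIP41-like at the bottom. Over all 6 libraries the order was GAPC2, UBQ10, EF1A4, GAPC1, UBQ5, ACT7, ACT2, ACT8, PP2AA3 and TIP41-like. Of the 9 neighbouring pairs in this order, 7 had ranges that did not overlap. The exceptions were EF1A4 with GAPC1, where EF1A4 was higher in 5 of 6 libraries, and GAPC1 with UBQ5, where GAPC1 was higher in 6 of 6 libraries but by as little as 1.01-fold.

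**Figure D1:**
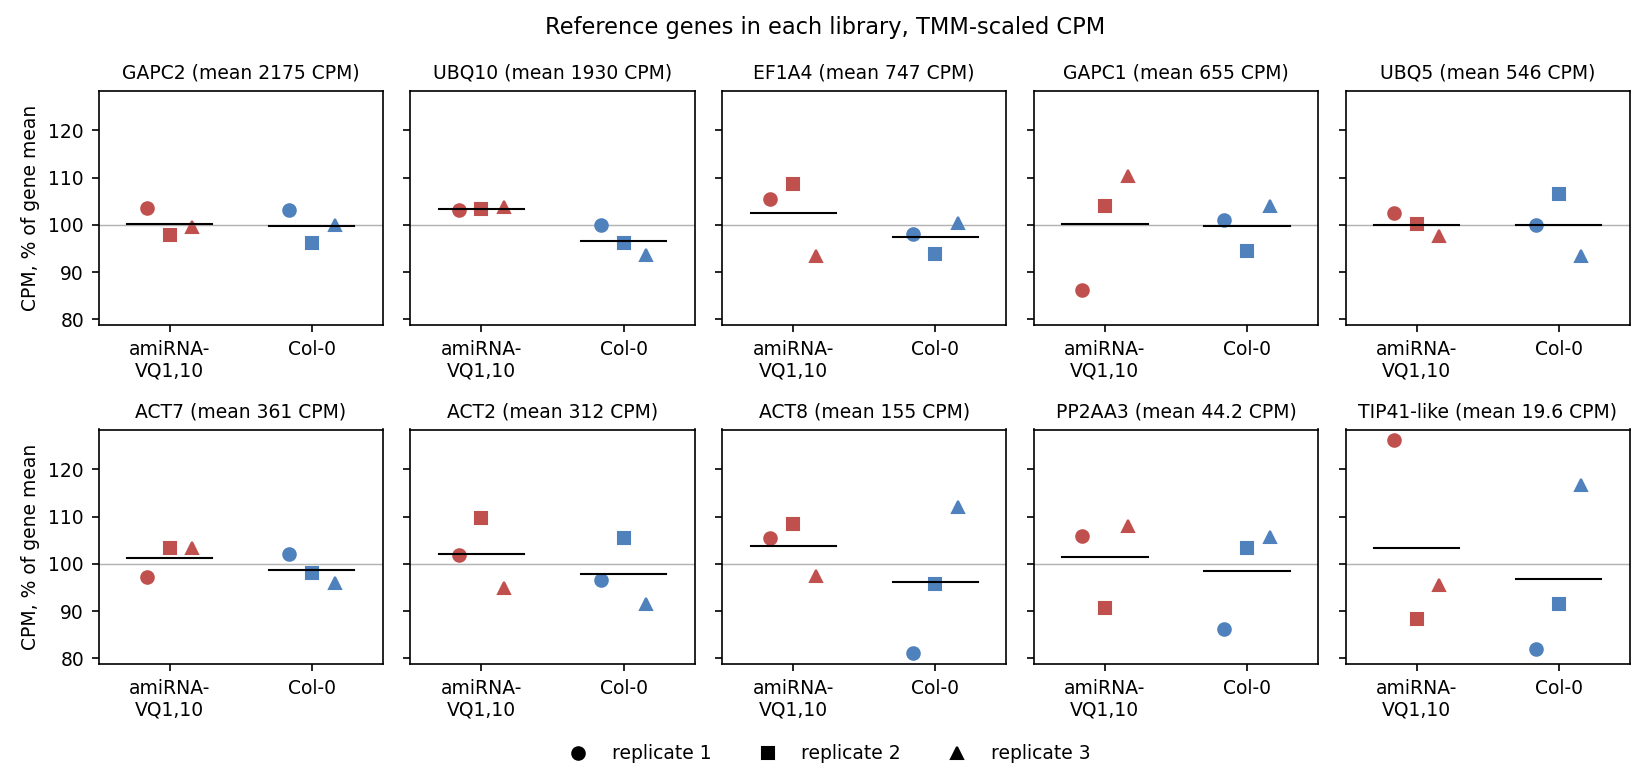
Each panel gives 1 reference gene, with TMM-scaled CPM of each library as a percent of the gene's mean over the 6 libraries on the vertical axis, amiRNA-VQ1,10 on the left and Col-0 on the right. Marker shapes stand for replicates and black lines for genotype means; UBQ10 is the only gene of the 10 with separate ranges, and TIP41-like, the gene with the fewest counts, is the most scattered.

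Among the actins, ACT7, the vegetative actin linked to hormone response and growth, was the most abundant. ACT7 had 350.4, 372 and 373 CPM in the amiRNA-VQ1,10 libraries, against 368, 353 and 346 CPM in the Col-0 libraries. All 6 values lay within 1.08-fold of each other and the genotypes overlapped. ACT2, which has a known part in root hair growth, had 317, 342 and 296 CPM in amiRNA-VQ1,10, against 301, 329 and 285 CPM in Col-0. The highest and the lowest library of ACT2 came from different genotypes, 1.199-fold apart, and the genotypes overlapped. ACT8, the closest relative of ACT2, had 163, 168 and 151 CPM in amiRNA-VQ1,10, against 125, 148 and 174 CPM in Col-0. The amiRNA-VQ1,10 libraries lay inside the wider Col-0 range, which Col-0 replicates 1 and 3 opened to 1.38-fold.

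Of the pair UBQ10 and UBQ5, UBQ10 had the larger difference between the genotype means. UBQ10 had 1993, 1995 and 2002 CPM in the amiRNA-VQ1,10 libraries, against 1929, 1856 and 1805 CPM in the Col-0 libraries. Every amiRNA-VQ1,10 library was above every Col-0 library, with means of 1997 ± 4.83 and 1864 ± 62.4 CPM (SD, n = 3 each). The separation was small, 1.07-fold between the means (95% interval 0.983 to 1.17), and did not pass the test (edgeR quasi-likelihood, adjusted p = 0.872). UBQ5 had 559, 547 and 532 CPM in amiRNA-VQ1,10, against 546, 581 and 509.9 CPM in Col-0. The amiRNA-VQ1,10 libraries of UBQ5 lay inside the Col-0 range, and the genotype means were 545.8 ± 13.3 and 545.4 ± 35.5 CPM (SD, n = 3 each).

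The glycolytic pair differed in how far the libraries spread. GAPC2 had 2253, 2126 and 2163 CPM in amiRNA-VQ1,10, against 2243, 2092 and 2173 CPM in Col-0. These values lay within 1.08-fold of each other and the genotypes overlapped throughout. GAPC1 had 565, 681 and 722 CPM in amiRNA-VQ1,10, against 662, 618 and 681 CPM in Col-0. The lowest and the highest library of GAPC1 were both amiRNA-VQ1,10, replicates 1 and 3, 1.28-fold apart. EF1A4 had 788, 811 and 698 CPM in amiRNA-VQ1,10, against 733, 701 and 750.3 CPM in Col-0. Its highest and lowest library also belonged to amiRNA-VQ1,10, replicates 2 and 3, with the Col-0 libraries between them.

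PP2AA3 and TIP41-like, which are often chosen for their steadiness, rested on few reads here. PP2AA3 had 51, 37 and 56 counts in the amiRNA-VQ1,10 libraries, against 45, 61 and 53 counts in the Col-0 libraries. In TMM-scaled CPM these were 46.8, 40.05 and 47.7 in amiRNA-VQ1,10, against 38.1, 45.7 and 46.7 in Col-0, so that the genotypes overlapped. TIP41-like had 27, 16 and 22 counts in amiRNA-VQ1,10, against 19, 24 and 26 counts in Col-0. Summed over libraries, TIP41-like stood at 20.4 CPM in amiRNA-VQ1,10 (exact Poisson 95% interval 15.7 to 26.0) and 18.9 CPM in Col-0 (14.7 to 23.9). Each interval held the estimate of the other genotype; intervals and floors of this kind cover counting error only.

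The comparison of genotypes asked whether any of the 10 genes differed between amiRNA-VQ1,10 and Col-0. By the quasi-likelihood test of edgeR, with a threshold of 0.05 on the p adjusted over all tested genes, 0 of the 10 passed. Of all tested genes 0.102% passed, 0.0236% as higher and 0.0787% as lower in amiRNA-VQ1,10. At an unadjusted p under 0.05 there were also 0 of the 10, and DESeq2 and limma-voom called 0 as well. The smallest adjusted p of the 10 was that of UBQ10. Against so low a background the count of 0 is not a result about these genes, and the intervals carry the information.

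The intervals bound the difference that each gene could hide. They were narrowest for GAPC2 and UBQ10, with the most counts. GAPC2 had a log2 fold change of 0.01 ± 0.06 (SE), amiRNA-VQ1,10 over Col-0, and a 95% interval of the fold of 0.922 to 1.096. UBQ5 and GAPC1 had log2 fold changes of -0.00028 and 0.0063, with fold intervals of 0.894 to 1.12 and 0.889 to 1.14. ACT7 stood at 1.03-fold (0.910 to 1.16) and ACT2 at 1.04-fold (0.912 to 1.19). The upper bounds of these genes, and of UBQ10, were at most 1.19-fold.
EF1A4 stood at 1.05-fold (0.943 to 1.17). ACT8 stood at 1.08-fold with an interval of 0.907 to 1.28, and PP2AA3 at 1.04-fold (0.819 to 1.31). TIP41-like stood at 1.08-fold with the widest interval of the 10, 0.759 to 1.53, so that folds across this range remain compatible with its few counts. The log2 fold change was above 0 for 9 of the 10 genes, with a median of 0.054, where 50.7% of all tested genes were above 0 and their median was 0.00350. Separate ranges were found for 1 of the 10, UBQ10, where 10.4% of all tested genes had them.

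**Figure D2:**
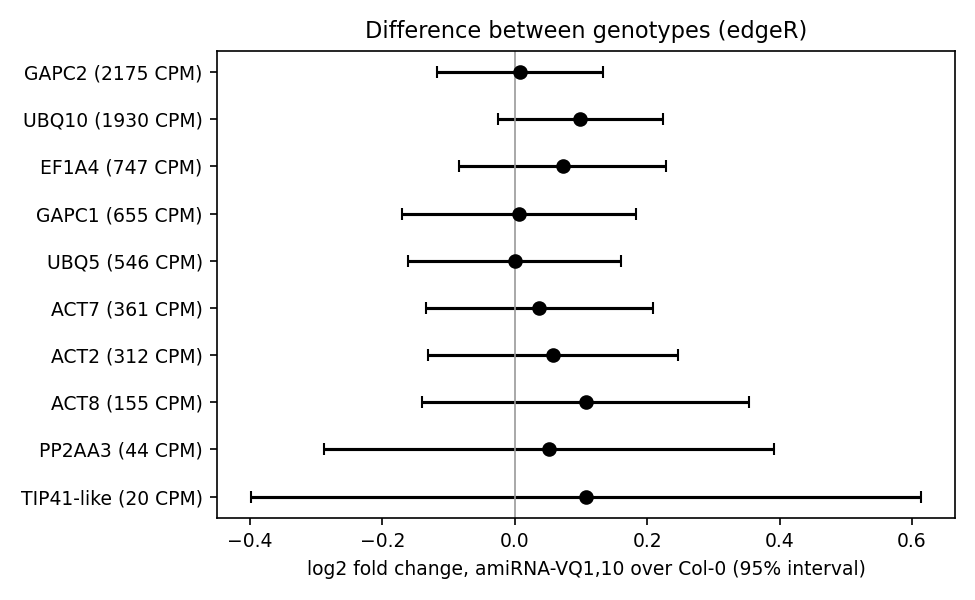
Log2 fold change of each reference gene, amiRNA-VQ1,10 over Col-0, on the horizontal axis, with 95% intervals from the edgeR fit and genes ordered by mean CPM from top to bottom. All 10 intervals cross 0, and they widen from GAPC2 (half-width 0.125) to TIP41-like (half-width 0.506).

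The spread of a gene over the 6 libraries was measured as the coefficient of variation (CV), the SD over the mean of TMM-scaled CPM. It was lowest for GAPC2 (2.91%) and ACT7 (3.33%), followed by UBQ10 (4.29%) and UBQ5 (4.39%). EF1A4 had a CV of 6.13%, ACT2 of 6.92%, GAPC1 of 8.45% and PP2AA3 of 9.13%. ACT8 at 11.3% and TIP41-like at 17.4% were the only 2 above 10%. The order at the top depends on the scaling. Scaled to the geometric mean of the 10 genes, ACT7 had a CV of 5.23%, behind GAPC2 (4.37%), UBQ10 (4.60%) and EF1A4 (5.16%), and with upper-quartile scaling ACT7 (2.71%) was below GAPC2 (3.23%). In all, 8 of the 10 genes had a CV under 10%, against 19.8% of all tested genes, and the medians were 6.53% and 16.7%. Level and CV go together, since few reads alone give a large CV, so each value was set beside the CV that Poisson counting would give.

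Against counting error the order changed. Of the 12701 tested genes, 6114 had a CV below the Poisson value. ACT7, PP2AA3 and TIP41-like were also below it, with CVs of 0.670, 0.645 and 0.819 of that value. For ACT7 this held with TMM, library totals (3.30%), DESeq2 size factors (3.27%) and upper-quartile scaling (2.71%). It did not hold with the geometric mean of the 10 genes, ACT7 included, where its CV of 5.23% was above the Poisson value of 4.97%. UBQ5 stood at 1.09 times that value and ACT2 at 1.29 times. GAPC2 and ACT8 stood at 1.44 and 1.48 times, EF1A4 at 1.77 times, UBQ10 at 1.999 times and GAPC1 at 2.29 times. The median of the 10 was 1.37, against 1.01 over all tested genes. Measured in this way 97.3% of all tested genes had a lower ratio than GAPC1, and 95.8% a lower one than UBQ10. The ratio tends to rise with level, since the counting part of the CV shrinks with more counts. GAPC1 and UBQ10 had mean levels above those of 98.6% and 99.7% of all tested genes, so these ranks reflect level in part. For UBQ10 the spread lay between the genotypes and within Col-0: its CV was 0.242% within amiRNA-VQ1,10 and 3.35% within Col-0, where counting gives 2.15% on average. For GAPC1 and EF1A4 it lay within amiRNA-VQ1,10, with CVs of 12.4% and 7.77%, against 4.89% and 3.46% within Col-0. For ACT8 it lay within Col-0, 16.2%, against 5.51% within amiRNA-VQ1,10. With 3 libraries a genotype these CVs are themselves imprecise, and no test between them was run. Without amiRNA-VQ1,10 replicate 1 the CV of GAPC1 was 5.56%, and without Col-0 replicate 1 that of ACT8 was 6.97%. In the edgeR fit, which shares information between genes, the biological CV of 8 of the 10 genes was below the trend for their level, as was that of 63.7% of all tested genes. The exceptions were GAPC1 (0.0770, with a trend of 0.0727) and ACT8 (0.0806, with a trend of 0.0774).

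**Figure D3:**
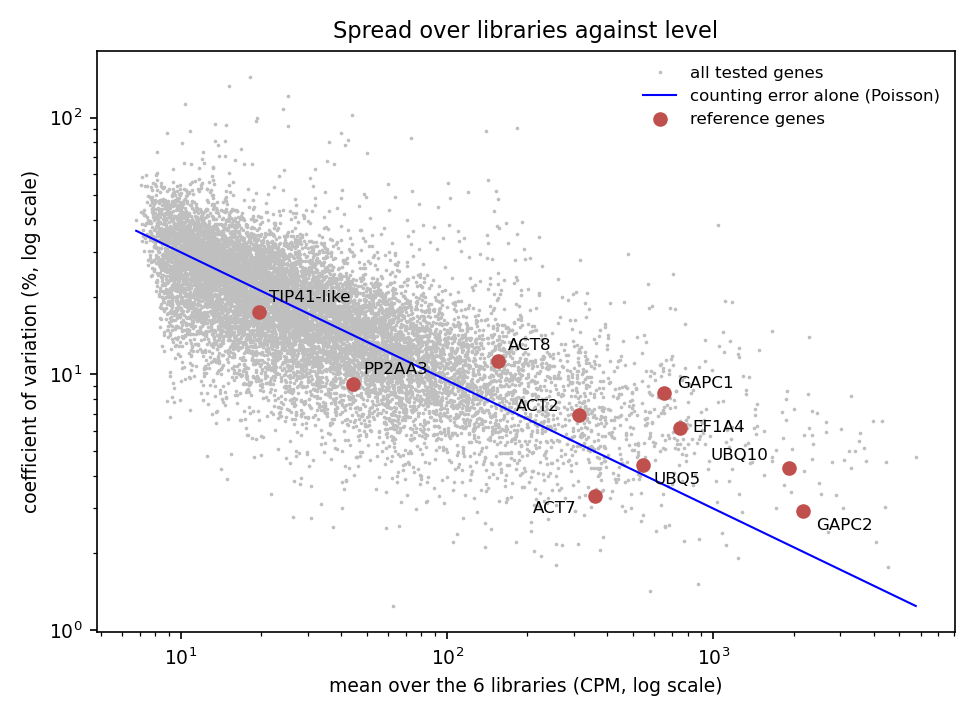
Coefficient of variation over the 6 libraries (vertical axis, percent, log scale) against mean TMM-scaled CPM (horizontal axis, log scale) for all 12701 tested genes in grey and the 10 reference genes in red; the blue line is what Poisson counting alone gives. ACT7, PP2AA3 and TIP41-like lie below the line, and GAPC1 and UBQ10 lie farthest above it in ratio among the 10.

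Ratios between related genes do not depend on how libraries are scaled. In all, 5 such ratios of counts were compared between the genotypes, with a two-sided exact permutation test that cannot go below p = 0.1 with 3 libraries against 3. The ratio of UBQ10 to UBQ5 was 3.57, 3.65 and 3.76 in the amiRNA-VQ1,10 libraries, against 3.54, 3.19 and 3.54 in the Col-0 libraries. The ranges did not overlap, at exact permutation p = 0.1, the smallest possible, and 0.5 after Benjamini-Hochberg adjustment over the 5 ratios. The gap between the nearest libraries of the genotypes, 3.57 and 3.54, was small beside the Col-0 range. The ratio of GAPC2 to GAPC1 was 3.99, 3.12 and 2.995 in amiRNA-VQ1,10, against 3.39, 3.38 and 3.19 in Col-0. Here amiRNA-VQ1,10 replicate 1 stood above all other libraries and the genotypes overlapped (exact permutation p = 1). ACT2 to ACT8 was 1.94, 2.04 and 1.96 in amiRNA-VQ1,10, against 2.40, 2.22 and 1.65 in Col-0, with the amiRNA-VQ1,10 libraries inside the Col-0 range (exact permutation p = 0.9). ACT2 to ACT7 ran from 0.792 to 0.930 and ACT7 to ACT8 from 1.995 to 2.94 over the 6 libraries, both with overlapping genotypes (exact permutation p = 1 and 0.8).

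Reference genes are usually judged in pairs, by how constant their ratio stays. The SD of the log2 ratio over the 6 libraries was computed for all 45 pairs and ran from 0.0463 to 0.322, with a median of 0.160. The steadiest pair was ACT7 with UBQ10, followed by UBQ10 with GAPC2 (0.0651), ACT7 with GAPC2 (0.0666) and ACT2 with UBQ5 (0.0674). The mean of these SDs over the 9 partners of a gene, the M value of the geNorm procedure, was lowest for UBQ10 (0.125), GAPC2 (0.126) and ACT7 (0.127). It was 0.135 for UBQ5, 0.136 for EF1A4 and 0.149 for ACT2. It was higher for PP2AA3 (0.170), ACT8 (0.183) and GAPC1 (0.184), and highest for TIP41-like (0.249). When the gene with the highest M was removed at each step, TIP41-like went first, then ACT8, PP2AA3, GAPC1, EF1A4, ACT2, UBQ5 and GAPC2, leaving ACT7 and UBQ10. The ranking mixes steadiness with depth, since PP2AA3 and TIP41-like had 16 to 61 counts a library. GAPC1 is different in this respect, with 616 to 848 counts a library and an M next to that of ACT8. UBQ10 had the lowest M and was also the only one of the 10 with separate genotype ranges.

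**Figure D4:**
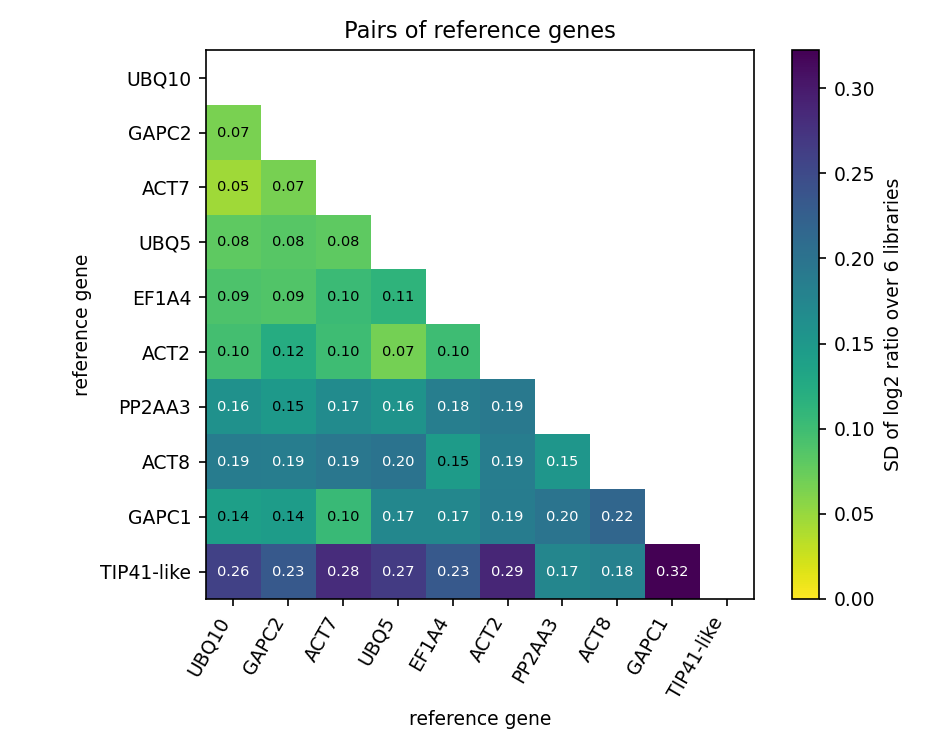
SD of the log2 ratio of counts over the 6 libraries for each of the 45 pairs of reference genes, with genes on both axes ordered by their mean SD (M), lowest first. The upper left block of UBQ10, GAPC2, ACT7 and UBQ5 stays at or under 0.0836, and the TIP41-like row reaches 0.322 with GAPC1.

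The effect of using each gene as the only scaling standard was then read off. Relative to TMM, the library size given by GAPC2 alone ran from 0.962 to 1.04 times over the 6 libraries, and that given by ACT7 alone from 0.960 to 1.03 times. The size given by UBQ10 ran from 0.936 to 1.04 times, with all 3 amiRNA-VQ1,10 libraries above all 3 Col-0 libraries. The widest departures from TMM came from TIP41-like, 0.830 to 1.28 times, and ACT8, 0.814 to 1.13 times. The geometric mean of all 10 genes stayed within 0.949 to 1.04 times, and library totals within 0.990 to 1.01 times. Scaling to 1 gene moves the log2 fold changes of all genes by about the same amount. That shift, from genotype means of log2 counts and not the edgeR fit, was 0.00110 for GAPC1, -0.0028 for UBQ5 and -0.0077 for GAPC2. It reached -0.0999 for UBQ10 and -0.119 for ACT8. With the geometric mean of the 10 genes it was -0.0537, and the test then called 17 genes in place of 13. QQS (AT3G30720), an orphan gene linked to starch, is an example with a large difference in these data. From genotype means of log2 counts it was 9.40-fold lower in amiRNA-VQ1,10 with TMM. With a single reference gene it was 9.39-fold (GAPC1) to 10.2-fold (ACT8) lower, and its interval and test are not given here. For a gene with a small difference the choice weighs more, since the log2 fold changes of the 10 genes in the edgeR fit were at most 0.108. The 2 measures are not the same, as the fit gave 0.107 for ACT8 and 0.0063 for GAPC1.

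The wider families were described from lists of 53 related or commonly used reference genes, of which 46 were tested. None passed over all genes (lowest edgeR adjusted p = 0.493), and at an unadjusted p under 0.05 there were 6 of the 46 (13.0%), where 6.02% of all tested genes had such a p. Of the 6 other actins, which apart from ACT9 are of the reproductive class, 3 were tested, ACT3 at 91.4 ± 9.88 CPM in amiRNA-VQ1,10 and 92.7 ± 12.5 CPM in Col-0 (SD, n = 3 each), and ACT1 and ACT11 at 23.3 to 27.2 CPM in either genotype. ACT4 and ACT12, of the same class, averaged below 1 CPM in both genotypes and ACT9 had 0 counts; these 3 were singled out after their values were seen. The level of ACT2 was higher than those of ACT1, ACT3 and ACT11 together.

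All 7 other ubiquitin genes were tested, with a median log2 fold change of -0.00753. UBQ11, UBQ14 and UBQ3, polyubiquitin genes like UBQ10, were the most abundant, and UBQ11 averaged 790.0 ± 47.9 CPM in amiRNA-VQ1,10 and 795 ± 31.2 CPM in Col-0 (SD, n = 3 each). The genes fused to ribosomal proteins did not all lean one way. UBQ1, fused to a ribosomal protein of the large subunit, stood at 0.25 ± 0.10 on the log2 scale (SE), with separate ranges. UBQ6, fused like UBQ5 to one of the small subunit, stood at -0.20 ± 0.09, also with separate ranges. Neither passed (edgeR adjusted p = 0.672 and 0.780). The 3 other EF1A genes had mean levels of 560.1 to 794 CPM, near that of EF1A4, and log2 fold changes of 0.00030 to 0.085. The shared stretches of EF1A4 named above are with these 3 genes and AT1G35550.

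Of the 5 other GAPDH genes, all tested, the chloroplast enzymes GAPA1, GAPA2 and GAPB of the Calvin cycle were the most abundant. GAPA2 had the smallest p of this list, 1619 ± 53.4 CPM in amiRNA-VQ1,10 and 1474 ± 53.0 CPM in Col-0 (SD, n = 3 each; edgeR adjusted p = 0.810). GAPA1 stood at 0.07 and GAPB at 0.02 on the log2 scale. The PP2A scaffold subunits PP2AA1 and PP2AA2 stood at -0.16 ± 0.14 and -0.11 ± 0.19 (SE), on the other side of 0 from PP2AA3, with no call.

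All 15 tubulin genes were tested, with a median log2 fold change of 0.071, and 10 were above 0. TUA6, TUA4 and TUA2, α-tubulins and the most abundant of the list, had log2 fold changes of 0.0060 to 0.071. TUA1 had the smallest p, 67.4 ± 6.56 CPM in amiRNA-VQ1,10 and 50.3 ± 3.07 CPM in Col-0 (SD, n = 3 each), a log2 fold change of 0.43 ± 0.15 (SE) that did not pass (edgeR adjusted p = 0.493). TUB4, a β-tubulin, stood at 0.24 ± 0.10 with an edgeR adjusted p of 0.684. Of 15 further genes used as references 11 were tested, with a median of 0.024. The cyclophilins ROC1 and ROC3 and the spliceosomal gene YLS8 were the most abundant, with log2 fold changes of -0.11, 0.043 and -0.00029. AT2G32170 and RHIP1 had the smallest p, at 0.42 ± 0.24 and 0.33 ± 0.21 (SE), with edgeR adjusted p of 0.859 and 0.880.

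The mean profile of the 10 genes over the libraries was nearly flat. On the centred log2 scale it ran from -0.075 in Col-0 replicate 1 to 0.0521 in amiRNA-VQ1,10 replicate 1. The 3 genes outside all lists whose own profile lay nearest to it, by Euclidean distance over the 6 libraries, were emb1644 (AT5G27720, distance 0.0343), PRA1.A3 (AT3G11397, 0.0450) and PPOX (AT4G01690, 0.0494). The gene emb1644 encodes an LSM protein of RNA processing and PPOX an enzyme of haem and chlorophyll synthesis. Mean levels of emb1644, PRA1.A3 and PPOX, in that order, were 67.4, 78.8 and 117 CPM and their CVs 3.17%, 3.73% and 3.37%. For ACT8, at 155 CPM, counting alone gives a CV of 7.60%, and it gives more at lower levels. The CVs of these 3 genes thus lay below counting error. All 10 reference genes lay farther from their own mean profile than these 3, at distances of 0.137 (GAPC2) to 0.471 (TIP41-like). The 3 were picked from 12561 tested nuclear genes outside the lists as the nearest in these libraries to a nearly flat profile. Their closeness, their CVs below counting error and their place ahead of the 10 follow from that choice and are a description.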

How the data were processed

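Total RNA of whole seedlings went into 3′ RNA-seq libraries whose primers carried a molecular identifier of 6 bp, per the labels' protocols. The authors deposited raw counts per gene, 1 file per library, with no normalization, per the file contents. Per the submitters' processing notes TAIR10 was the build, and STAR, DESeq2 and HISAT2 2.0.4 were used, in roles that are not stated. Which program counted reads, with which strand setting, and whether identifiers were collapsed is not given in the sources used here. Rows without a gene were kept out of the library totals and the tests. Reads outside genes were 3.79% to 4.07% of a library's entries, ambiguous reads 0.103% to 0.109% and multiply aligned reads 4.40% to 5.45%.

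Counts were compared between genotypes in R 4.3.3 with the quasi-likelihood test of edgeR 4.0.16 after filterByExpr (minimum count 10, minimum total 15) and TMM scaling, with Benjamini-Hochberg adjustment over 12701 genes and a threshold of 0.05. The SE was obtained by dividing the log2 fold change by the root of F, and 95% intervals use the t distribution of the fit. The script was tested on simulated data. Gene names and sequences came from RefSeq on TAIR10.1, used by gene identifier (32548 of 32833 identifiers and 10 of 10 reference genes matched). Alternatives were other scalings, other filters, DESeq2 1.42.0, limma-voom (limma 3.58.1), a replicate block, a fit without organelle genes, and fits without each library in turn.

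The design text calls the libraries independent biological replicates. Counts of replicates of 1 genotype differed beyond counting noise, at 1.24 to 1.58 for chi-square divided by its degrees of freedom, and each library was kept as 1 replicate. The members and lists were chosen with earlier results of these data known, and the ratios and the scaling to single genes were chosen after seeing the data. Genes of the lists are named if past the threshold, among the 3 most abundant or among the 2 with the smallest p of their list, and genes like in pattern are the 3 tested nuclear genes outside the lists nearest to the mean profile.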

Additional observations from a re-analysis of the deposited data

How the results depend on the processing

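The count of reference genes past the threshold was 0 under all 16 alternatives, and the lowest adjusted p in them was 0.736 (EF1A4 without amiRNA-VQ1,10 replicate 3). The number of all tested genes called, 13, was 92 with no filter, 6 with a strict filter of 50 counts in 3 libraries, 6 by DESeq2, 8 by limma-voom and 10 to 37 with a library left out (37 without Col-0 replicate 2, 22 without amiRNA-VQ1,10 replicate 3), and it was 16 with the replicate number as a block. With a library left out, the calls that rose were 10 of 14 without amiRNA-VQ1,10 replicate 1, against 3 of 13 with all libraries, and 44 of 92 with no filter. No pairing by replicate number was seen, as same-numbered libraries deviated from their genotype means with correlations of -0.0065, -0.025 and -0.032. Counting noise can hide a weak pairing, so these values do not exclude it. The block turned the log2 fold change of UBQ5 to 0.00280.

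Of 159 log2 fold changes of reference genes under the alternatives 140 kept their sign and 19, in 7 genes, turned it, all near 0 and none past the threshold. Scaled to the geometric mean of the 10 genes, which centres them by construction, ACT7 stood at -0.017, PP2AA3 at -0.0018, GAPC1 at -0.046 and GAPC2 at -0.047. With library totals alone GAPC1 stood at -0.011 and GAPC2 at -0.010, and with upper-quartile scaling at -0.0061 and -0.0037. With each library left out in turn the ranges were -0.0035 to 0.22 for ACT8, -0.047 to 0.049 for UBQ5, -0.035 to 0.12 for PP2AA3, -0.072 to 0.10 for GAPC1, -0.017 to 0.030 for GAPC2 and -0.062 to 0.25 for TIP41-like. They were 0.0045 to 0.12 for ACT2, 0.029 to 0.13 for EF1A4 and 0.076 to 0.12 for UBQ10. Scaled to the geometric mean of the 10 genes, UBQ10 stood at 0.044, ACT2 at 0.0030 and EF1A4 at 0.018, against 0.099, 0.057 and 0.072 with TMM. That scaling gave UBQ5 a CV of 5.82%. TIP41-like had too few counts for the strict filter. The log2 ratios, amiRNA-VQ1,10 minus Col-0, ranged with a library left out from -0.014 to 0.093 for ACT2 to ACT7, -0.22 to 0.053 for ACT2 to ACT8, -0.22 to 0.062 for ACT7 to ACT8, -0.12 to 0.088 for GAPC2 to GAPC1 and 0.048 to 0.12 for UBQ10 to UBQ5. The cause of these changes was not tested. Depth limits PP2AA3 and TIP41-like most.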
